A study of Homo sapiens with 6 samples.

Results

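The aminoacyl-tRNA synthetase genes were examined in RNA-seq data of UM-SCC1 cells that received mimics of miR-204-5p (called miR-204 cells here) or control mimics (control cells). The group was chosen by gene symbol, as the rows of the deposited gene table that carry the name of an aminoacyl-tRNA synthetase or of a scaffold protein of the multi-synthetase complex. It holds 39 of the 14959 genes of the table, of which 21 encode cytosolic enzymes or their subunits, 16 encode mitochondrial enzymes (symbols that end in 2) and 2 encode scaffold proteins, AIMP1 and AIMP2. The rule itself uses no expression value, but the list was drawn up with earlier results of these data known. UM-SCC1 is an established line of head and neck squamous cell carcinoma (HNSCC), and a mimic is a short synthetic RNA duplex that supplies the cell with the mature miRNA. The control mimics were the corresponding control oligos, and nothing else differed between the groups according to the labels. RNA was taken at 48 h after transfection, and each group has 3 libraries from independent experiments.

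Aminoacyl-tRNA synthetases join each amino acid to its tRNA, the step that fixes the genetic code before the ribosome reads it. The cytosol and the mitochondrion use largely separate sets of nuclear-encoded enzymes, and every enzyme belongs to class I or class II by the fold of its catalytic domain. In the cytosol, several of the enzymes are held together with AIMP1, AIMP2 and EEF1E1 in the multi-synthetase complex. Many cytosolic synthetase genes are known targets of ATF4, the transcription factor of the amino acid response, and WARS is known to respond to interferon.

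Expression was given as FPKM, fragments scaled by transcript length and by the mapped fragments of the library, a level per length that rests on the 1 transcript listed for each gene. The squamous markers KRT5, KRT14, KRT17, TP63 and EPCAM had mean levels from 55.9 to 272.0 FPKM in control cells. KRT6A, the sixth squamous marker, had 1.24 FPKM there, below CD68 (10.8) and COL1A1 (8.37), and was the squamous marker that rose, by 0.81 on the log2 scale. The leukocyte and endothelial markers PTPRC, CD3E, PECAM1 and VWF had mean levels of 0.137 to 0.299 FPKM there. The 6 squamous markers summed to 476.4 to 576.2 FPKM in miR-204 cells and 668.7 to 698.1 FPKM in control cells, with 4 markers lower and 1 higher, and their part in the results below was not tested. The 7 markers of other cell types that the table lists summed to 20.1 to 21.7 and 19.2 to 21.0 FPKM, nearly all of it from CD68 and COL1A1. Spearman's correlation across genes was 0.9899 to 0.9908 between libraries of the same group and 0.9733 to 0.9756 between libraries of different groups. The smallest step in FPKM on a transcript of 1 kb was 0.0305 to 0.0383, and whether a step is 1 read or 1 fragment cannot be told apart. In its lowest library each synthetase or scaffold gene held between 184 of these steps (NARS2) and 12882 (AARS). Fewer cells and less RNA per cell cannot be told apart in bulk RNA, and every FPKM value is relative to the rest of the library.

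A miRNA recognises its targets mainly through its seed, so the mature sequence is shown first, with the seed (bases 2 to 8) in capitals. It is taken from RefSeq on GRCh38.p14, where it lies at chr9:70810031-70810052 on the minus strand. A target site pairs with the seed as AAGGGA (6mer), as AAGGGAA (7mer-A1), as AAAGGGA (7mer-m8) or as AAAGGGAA (8mer).
miR-204-5p: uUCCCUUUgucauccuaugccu

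More of the synthetase genes rose than fell in miR-204 cells. By limma on log2(FPKM + 1), fitted to all 14959 genes with an adjusted p-value under 0.05 as the threshold, 18 of the 39 genes rose (46.2%), 3 fell (7.69%) and 18 were not called. Of all genes tested, 40.8% were called, 23.9% higher and 16.8% lower. Among the 11504 genes with a mean of at least 1 FPKM, a level that every one of the 39 genes exceeded, 27.7% were higher and 20.1% were lower. A positive log2 fold change was found for 31 of the 39 genes, and the median was 0.16, against 0.03 over all genes and 0.04 over genes with a mean of at least 1 FPKM. In 23 genes every miR-204 library lay above every control library, and in 5 every one lay below, where 30.9% and 22.7% of all genes did so. When the FPKM of every library was scaled to the same sum, 15 of the 39 genes were higher and 5 lower. The higher share of the called genes thus moved from 85.7% to 75.0%. Over all genes tested this share moved as well, from 58.7% to 51.6%. The 5 largest log2 fold changes of the 39 genes were those of NARS2, FARSB, CARS, LARS and AIMP2.

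**Figure D1:**
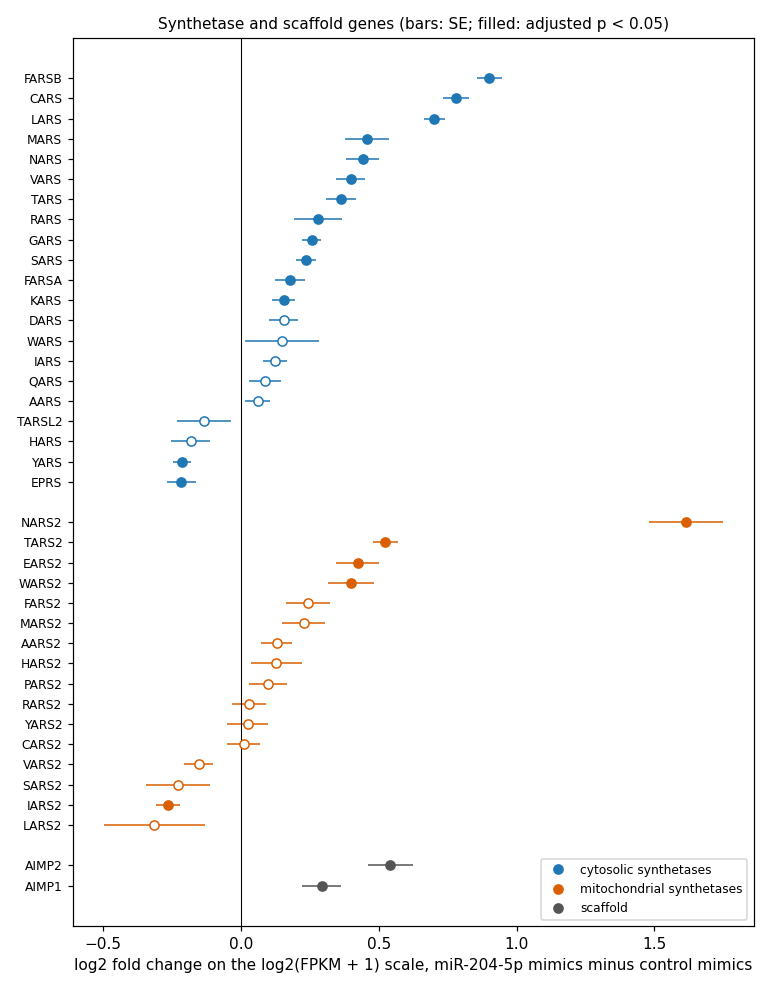
The log2 fold change (miR-204 minus control cells, on the log2(FPKM + 1) scale) of each of the 39 genes is plotted by class, with its standard error as a bar and a filled point where the limma adjusted p-value was under 0.05. The cytosolic genes run from -0.22 to 0.90, and NARS2 at 1.61 stands apart from the other mitochondrial genes, which run from -0.31 to 0.52.

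Among the 21 cytosolic genes, 12 rose (57.1%), 2 fell (9.52%) and 7 were not called, with a median log2 fold change of 0.18. With each library scaled to the same sum these counts were 9 higher and 3 lower. The higher share of the called cytosolic genes moved from 85.7% to 75.0%, and that of all called genes from 58.7% to 51.6%. The FPKM values of the 21 cytosolic genes summed to 1056, 1060 and 1053 in the miR-204 libraries and to 915.5, 914.4 and 924.3 in the control libraries. The summed level was thus higher in every miR-204 library.

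FARSB, the beta subunit of cytosolic phenylalanyl-tRNA synthetase (chr2:222570536-222656337, minus strand), had the largest change of the cytosolic genes (positions here and below are on GRCh38). Its level was 18.0, 18.0 and 17.8 FPKM in miR-204 cells and 8.92, 9.59 and 8.92 FPKM in control cells. The libraries of each group lay close together and far from those of the other group (log2 fold change 0.90, SE 0.045, limma adjusted p = 6.74e-05). FARSA, the catalytic alpha subunit of the same enzyme, had 58.7 ± 2.76 FPKM (SD, n = 3) in miR-204 cells and 51.9 ± 2.75 in control cells, a log2 difference of 0.18 (SE 0.054, adjusted p = 0.0387 by limma). The FARSA call was lost under each of the 3 other scalings (0.0521 to 0.126), and without miR-204 library 2 or 3 or control library 1 or 3 (0.0972 to 0.114). The ratio of FARSB to FARSA FPKM was 0.322, 0.295 and 0.300 in the miR-204 libraries and 0.178, 0.174 and 0.177 in the control libraries. The FARSB transcript was therefore the less abundant of the pair in every library, by a smaller margin in miR-204 cells.

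CARS, the cysteinyl-tRNA synthetase (chr11:3000922-3057437, minus strand), had 38.0, 39.5 and 40.2 FPKM in miR-204 cells and 21.5, 23.6 and 22.2 FPKM in control cells. The groups did not overlap, and the log2 fold change was 0.78 (SE 0.046, limma adjusted p = 9.89e-05). LARS, the leucyl-tRNA synthetase (chr5:146113038-146182660, minus strand), which also senses leucine for mTORC1, had 41.6, 43.6 and 42.2 FPKM in miR-204 cells and 24.9, 26.2 and 26.1 FPKM in control cells. Here too all 3 miR-204 libraries stood above the controls (log2 fold change 0.70, SE 0.039, limma adjusted p = 8.16e-05). These genes stood together in rank of change, at 1.65 to 1.75 times the control level for LARS and CARS and 1.96 times for FARSB.

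**Figure D2:**
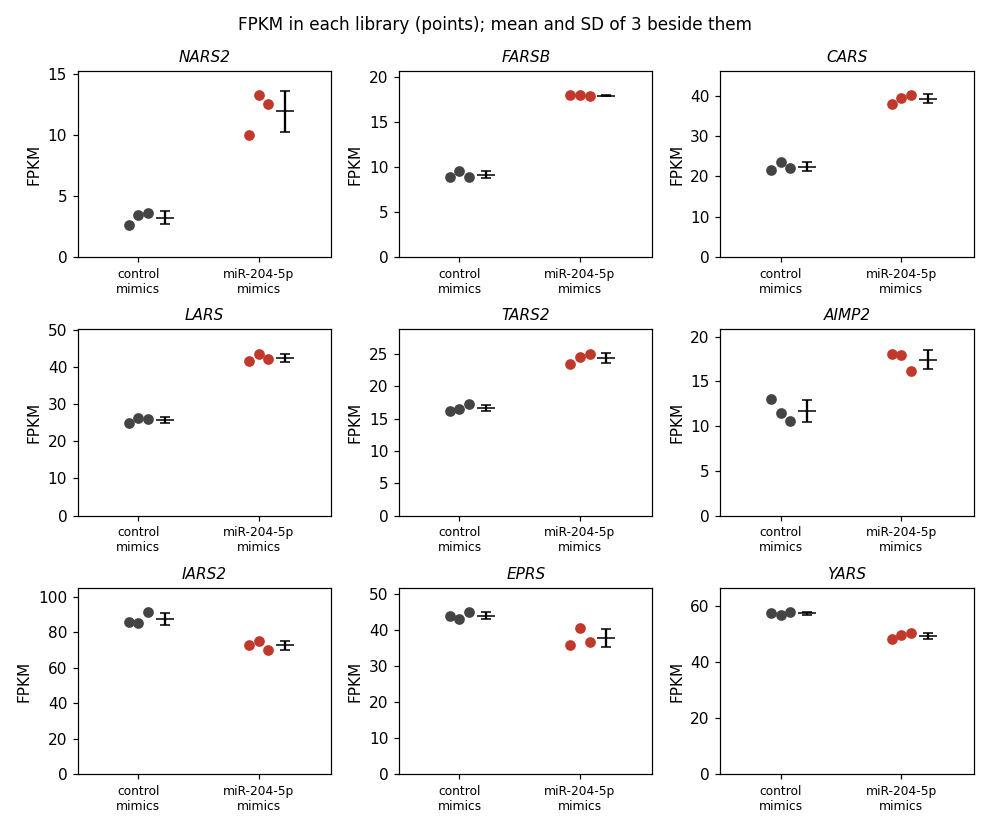
FPKM is plotted on a linear axis from 0 for 9 of the genes, with a point for each library and the mean ± SD of 3 libraries beside the points. In the first 6 panels (NARS2, FARSB, CARS, LARS, TARS2 and AIMP2) the miR-204 libraries lie above the controls, and in the last 3 (IARS2, EPRS and YARS) they lie below.

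A second tier of cytosolic genes rose by smaller steps. MARS (methionine, and so also the initiator tRNA) had 43.8 ± 1.68 and 31.7 ± 3.58 FPKM (SD, n = 3; miR-204 cells first here and in the following sentences), a log2 fold change of 0.46. NARS (asparagine) had 28.2 ± 1.88 and 20.5 ± 0.850 FPKM, which is a log2 fold change of 0.44. VARS (valine) had 34.6 ± 2.28 and 26.0 ± 0.152 FPKM, which is a log2 fold change of 0.40. TARS (threonine) differed by 0.36 on the log2 scale, and the limma adjusted p-values of these 4 genes ran from 0.00161 for VARS to 0.00503 for MARS. The changes of RARS (arginine, 0.28), GARS (glycine, 0.26), SARS (serine, 0.24) and KARS (lysine, 0.16) were smaller still. Of these, SARS was the most abundant, at 111.4 ± 3.40 and 94.5 ± 2.02 FPKM (SE 0.037, limma adjusted p = 0.00327). GARS and KARS each supply both the cytosol and the mitochondrion from 1 gene. The calls of RARS (adjusted p = 0.0408) and KARS (adjusted p = 0.0245) were lost under each of the 3 other scalings, where the limma adjusted p-values were 0.0538 to 0.0599 for RARS and 0.0532 to 0.058 for KARS. Without miR-204 library 1 or 3 or control library 1 or 2 the adjusted p of RARS was 0.0839 to 0.115, and without library 1 or 2 of either group that of KARS was 0.0549 to 0.0804.

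The 7 cytosolic genes that were not called included the most abundant of all 39, AARS (alanine). Its level was 141.9, 146.0 and 156.0 FPKM in miR-204 cells and 144.4, 138.5 and 142.3 FPKM in control cells. The groups overlapped (log2 fold change 0.06, SE 0.045, limma adjusted p = 0.327). WARS, the tryptophanyl-tRNA synthetase, varied most between control libraries among the cytosolic genes, at 22.5, 32.9 and 27.1 FPKM, and its 33.2, 28.8 and 28.7 FPKM in miR-204 cells lay within or just above that range. DARS (aspartate) had a log2 fold change of 0.15 and IARS (isoleucine) one of 0.12, with no overlap between groups and limma adjusted p-values of 0.051 and 0.0683. HARS (histidine) had -0.18 (15.4 ± 1.21 and 17.6 ± 1.13 FPKM), with every miR-204 library below every control library and a limma adjusted p of 0.0834. QARS (glutamine) had 0.09 and TARSL2, a second cytosolic threonine enzyme and the least abundant of the 39 genes, had -0.13. Its mean over all libraries was 3.13 FPKM, against 145 FPKM for AARS. DARS passed the threshold without miR-204 library 3 (limma adjusted p = 0.0224) and HARS without miR-204 library 2 (0.0415), with equal sums (0.0499) and with the replicate number as a block (0.046). With the fit limited to genes with a mean of at least 1 FPKM, DARS passed as well (limma adjusted p = 0.0465).

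EPRS and YARS were the cytosolic genes that fell. EPRS, a fused enzyme that charges both glutamate and proline tRNAs (chr1:219968601-220046658, minus strand), had 35.8, 40.5 and 36.7 FPKM in miR-204 cells and 43.7, 43.1 and 44.9 FPKM in control cells. All 3 miR-204 libraries were below the lowest control, the second of them by the least (log2 fold change -0.22, SE 0.053, limma adjusted p = 0.0173). The EPRS call was lost without the third library of either group (limma adjusted p = 0.053 and 0.0555). YARS, the tyrosyl-tRNA synthetase (chr1:32775239-32818153, minus strand), had 48.1, 49.6 and 50.1 FPKM in miR-204 cells and 57.6, 56.7 and 57.7 FPKM in control cells. Both groups were tight and apart from each other, with a log2 difference of -0.21 (SE 0.033, adjusted p = 0.0029 by limma).

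The multi-synthetase complex was next considered as a unit. Of its 10 members in the group, 6 rose (LARS, MARS, RARS, KARS, AIMP1 and AIMP2), EPRS fell, and DARS, IARS and QARS were not called, with a median log2 fold change of 0.22. The 13 cytosolic genes outside the complex, all of them enzyme genes, had 8 higher (61.5%), 1 lower (7.69%) and a median of 0.24. Within the complex, scaffold genes included, 60% were higher and 10% lower, where 23.9% and 16.8% of all genes tested were. The scaffold gene AIMP2 (chr7:6009245-6023834, plus strand) had 18.1, 18.0 and 16.2 FPKM in miR-204 cells and 13.0, 11.5 and 10.6 FPKM in control cells. Its groups did not overlap (log2 fold change 0.54, SE 0.082, limma adjusted p = 0.00281). AIMP1, which is also the precursor of a secreted cytokine, had 17.8 ± 1.12 and 14.3 ± 1.05 FPKM, a log2 difference of 0.29 (adjusted p = 0.0162 by limma, and 0.0528 without miR-204 library 2). EEF1E1, the third scaffold protein, also known as AIMP3, is listed below with the partners of the enzymes and rose by 0.24 on the log2 scale (8.02 ± 0.556 and 6.60 ± 0.111 FPKM, limma adjusted p = 0.0191).

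**Figure D3:**
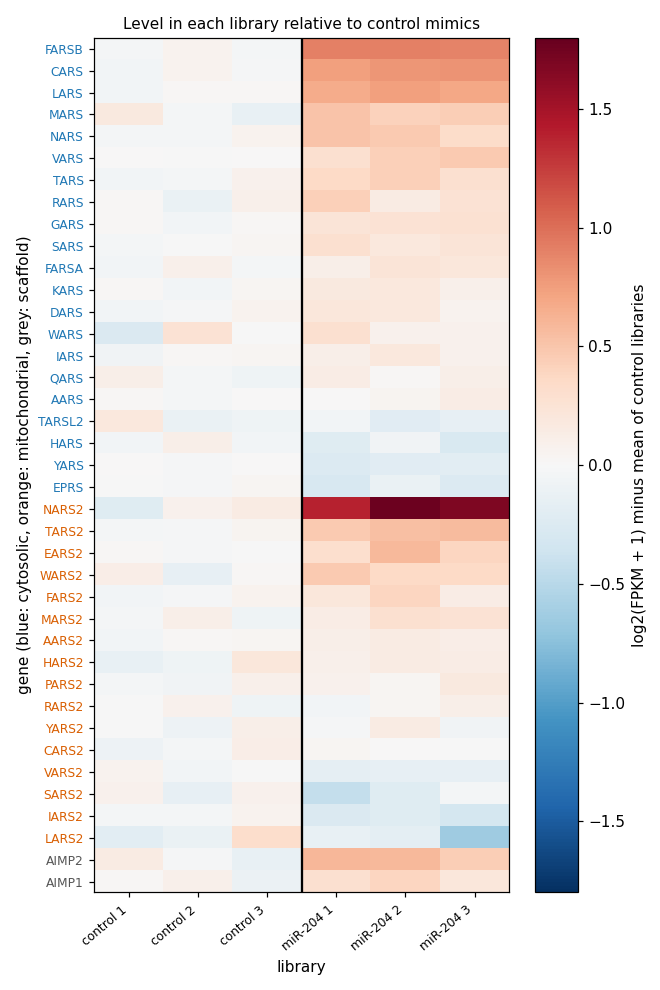
Each row is a gene and each column a library, and the colour gives log2(FPKM + 1) minus the mean of the 3 control libraries. Most cytosolic rows are red in all 3 miR-204 libraries, the mitochondrial rows are mixed, and control 3 and miR-204 library 3 stand out in the LARS2 row.

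Among the 16 mitochondrial genes, 4 rose (25%), 1 fell (6.25%) and 11 were not called, with a median log2 fold change of 0.11. The higher share lies near the 23.9% of all genes tested. With each of the 3 other scalings there were 4 higher and 2 lower, so that the higher share of the called genes moved from 80% to 66.7%. Over all genes this share moved from 58.7% to 54.8% (equal medians), 51.6% (equal sums) and 50.1% (quantile normalization). With the fit limited to genes with a mean of at least 1 FPKM, 6 of the 16 were higher and 2 lower. In that fit 3328 of all 11504 genes were higher. With a pseudocount of 0.1 there were 5 higher and 1 lower. The summed level was 231.4, 246.5 and 236.1 FPKM in miR-204 cells and 225.9, 224.5 and 242.7 FPKM in control cells, and these ranges overlapped. The largest part of this sum was IARS2, the gene that fell, and the overlap leans on it. IARS2 had 70.1 to 75.1 FPKM in miR-204 cells and 85.4 to 91.4 in control cells. In 7 of the 16 genes every miR-204 library lay above every control library, and in 2 every one lay below (30.9% and 22.7% of all genes). Since the members were chosen with results of these data known, no test of the difference between the cytosolic and the mitochondrial class was made.

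NARS2, the mitochondrial asparaginyl-tRNA synthetase (chr11:78435961-78574864, minus strand), had the largest change of the 39 genes. Its level was 9.98, 13.2 and 12.5 FPKM in miR-204 cells and 2.60, 3.42 and 3.62 FPKM in control cells. Every miR-204 library exceeded the highest control by a wide margin, at 3.70 times the control mean (log2 fold change 1.61, SE 0.134, limma adjusted p = 0.000283). TARS2, the mitochondrial threonyl-tRNA synthetase (chr1:150487364-150507609, plus strand), had 23.5, 24.6 and 25.1 FPKM in miR-204 cells and 16.3, 16.5 and 17.3 FPKM in control cells. These groups were also separate (log2 fold change 0.52, SE 0.044, limma adjusted p = 0.000298). EARS2 (glutamate) had 10.6 ± 1.18 and 7.61 ± 0.136 FPKM, a log2 difference of 0.42 (adjusted p = 0.0061 by limma). WARS2 (tryptophan) had 7.09 ± 0.381 and 5.15 ± 0.578 FPKM, a log2 difference of 0.40 (adjusted p = 0.00998 by limma).

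IARS2 (isoleucine, chr1:220094102-220148041, plus strand) was by far the most abundant mitochondrial enzyme transcript and the one that fell. It had 72.8, 75.1 and 70.1 FPKM in miR-204 cells and 85.7, 85.4 and 91.4 FPKM in control cells. The groups did not overlap, and the log2 fold change was -0.26 (SE 0.044, limma adjusted p = 0.00399). LARS2 (leucine) had the lowest log2 fold change, -0.31, without a call (SE 0.183, adjusted p = 0.22). Its 5.38, 5.17 and 3.49 FPKM in miR-204 cells overlapped its 5.12, 5.40 and 7.67 FPKM in control cells, and the third library of each group was the one that stood away from the other two.

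The remaining mitochondrial genes were not called. FARS2 (phenylalanine, 0.24) and MARS2 (methionine, 0.23) had no overlap between groups and limma adjusted p-values of 0.0522 and 0.0549, and AARS2 (alanine, 0.13) had no overlap and an adjusted p of 0.109. VARS2 (valine) had -0.15, below every control library, with an adjusted p of 0.0537, and passed the threshold under each of the 3 other scalings (0.0319 to 0.0362). HARS2 (0.13), PARS2 (proline, 0.10), RARS2 (0.03), YARS2 (0.02), CARS2 (0.01) and SARS2 (-0.23) overlapped between groups. FARS2 passed the threshold without miR-204 library 3 (limma adjusted p = 0.0413), MARS2 without control library 2 (0.0393) and HARS2 without control library 3 (0.0229). With the fit limited to genes with a mean of at least 1 FPKM, FARS2 (0.0396), MARS2 (0.0401) and VARS2 passed it as well. With a pseudocount of 0.1 FARS2 passed (limma adjusted p = 0.0483). The signs of RARS2, YARS2 and CARS2 turned when each library was scaled to the same sum.

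Enzymes for the same amino acid were then set side by side. Phenylalanine was paired through FARSA and threonine through TARS. FARSB (0.90, against 0.24 for FARS2) and TARSL2 (-0.13, against 0.52 for TARS2) were left out. The 16 pairs of a cytosolic and a mitochondrial gene, with EPRS paired to both EARS2 and PARS2, had the same sign in 8 pairs. Both genes rose in 2 pairs, NARS with NARS2 and TARS with TARS2, and both fell in none. EPRS and EARS2, which both charge glutamate tRNAs, were called in opposite directions. In 11 pairs 1 gene was called, and in the pairs of AARS with AARS2 and HARS with HARS2 neither was. In control cells the cytosolic gene had the higher mean FPKM in 15 of the 16 pairs, and the exception was isoleucine, where the ratio of IARS to IARS2 was 0.495 in control cells and 0.65 in miR-204 cells. The unpaired TARSL2, at 3.33 FPKM in control cells, was also below TARS2, at 16.7 FPKM there. The ratio of NARS to NARS2 was 6.37 in control cells and 2.37 in miR-204 cells. For leucine the ratio of LARS to LARS2 was 4.24 in control cells and 9.08 in miR-204 cells.

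**Figure D4:**
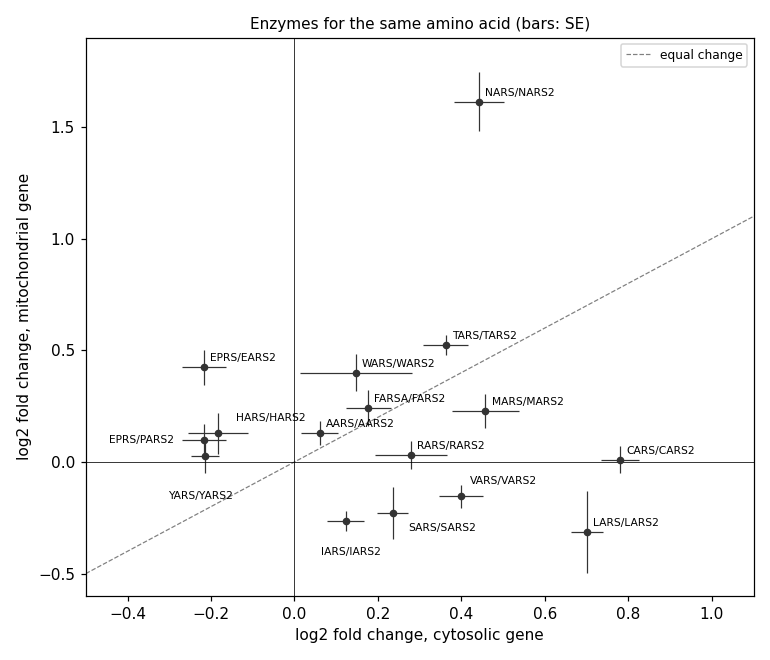
For each pair the log2 fold change of the cytosolic gene (x axis) is plotted against that of its mitochondrial partner (y axis). Bars are standard errors, the dashed line marks equal change, and FARSB and TARSL2 are not plotted. NARS/NARS2 lies far above the line, and CARS/CARS2 and LARS/LARS2 lie far below it.

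The genes were also divided by catalytic class, which the choice of the group did not use. Of the 19 class I enzymes 7 rose (36.8%) and 3, EPRS, YARS and IARS2, fell (15.8%), with a median log2 fold change of 0.12. Of the 18 class II genes 9 rose (50%) and none fell by limma's adjusted p (1 lower at an unadjusted p under 0.05). Their median was 0.17. Over all genes tested, 23.9% were higher and 16.8% lower, and the difference between the catalytic classes was not tested.

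The 3'UTRs of the genes were searched for matches to the miR-204-5p seed. In the longest 3'UTR of GENCODE 29 (GRCh38), a match of 7 or more bases was found in 3 of the 39 genes (7.69%) and in 3974 of the 14660 genes of the table with a 3'UTR (27.1%). The 3'UTRs of the group were also shorter, with a median of 639 bases against 1253. The sites of YARS (8mer, chr1:32775527-32775534, minus strand, exon 13 of 13), LARS2 (7mer-A1, chr3:45547619-45547625, plus strand, exon 21 of 21) and KARS (7mer-A1, chr16:75627823-75627829, minus strand, exon 15 of 15) are shown along the transcript with the match in capitals, because they are the group's sites of at least 7 bases that lie in the transcript listed for the gene.
YARS: atttgaaaaggAAAGGGAAgggaaaacaga
LARS2: tggcccaggggAAGGGAAaagacaaatgtc
KARS: tcaaggtctgcAAGGGAAttcttgtgtgct

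The 3 genes did not move alike. YARS, with the 8mer and an overlapping 7mer-A1 at chr1:32775522-32775528, fell by 0.21 on the log2 scale, LARS2 was not called, and KARS had a log2 fold change of 0.16. LARS2 has a further 8mer at chr3:45549300-45549307, beyond the 3'UTR of its listed transcript. EPRS and IARS2, the other genes that fell, have no match of 6 or more bases in their longest 3'UTR, which are 205 and 406 bases long. A match of 6 bases was the best one in EARS2, MARS2 and TARS, of which EARS2 and TARS rose. The match of TARS lies beyond the 3'UTR of its listed transcript.

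The promoters were searched for TGATGNAA, the core of the C/EBP-ATF response element to which ATF4 binds, on either strand (TTNCATCA on the other). RefSeq promoters on GRCh38.p14, from 250 bases before to 50 after each annotated start, were matched for 32 of the 39 genes, while those of DARS, LARS, TARSL2, VARS, YARS, AARS2 and VARS2 were not matched. At least 1 promoter of the gene held the motif in 8 of the 32 genes (25%), against 342 of 11765 genes of the deposited table (2.91%) and 1217 of 27305 genes of the promoter set (4.46%). By class these were 7 of 16 cytosolic genes (43.8%), 1 of 14 mitochondrial genes (7.14%, YARS2) and neither scaffold gene. TGATGCAA itself, a form counted after the matches had been seen, was found in 6 of 16 cytosolic genes (37.5%), in 0 of 14 mitochondrial genes and in 0.782% of the genes of the table. The windows of the 7 cytosolic genes are shown along the direction of transcription, with the match in capitals, because the letters are shared between genes whose promoters otherwise differ. They lie at chr16:70289675-70289704 (minus strand) for AARS, chr11:3057407-3057436 (minus) for CARS, chr7:30594834-30594863 (plus) for GARS, chr9:92293692-92293721 (minus) for IARS, chr12:57488053-57488082 (plus) for MARS, chr18:57621804-57621833 (minus) for NARS and chr5:33440956-33440985 (plus) for TARS.
AARS: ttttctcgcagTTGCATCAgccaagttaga
CARS: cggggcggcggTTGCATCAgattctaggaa
GARS: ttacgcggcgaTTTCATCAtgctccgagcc
IARS: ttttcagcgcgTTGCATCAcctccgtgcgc
MARS: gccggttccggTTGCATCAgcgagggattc
NARS: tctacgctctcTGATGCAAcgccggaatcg
TARS: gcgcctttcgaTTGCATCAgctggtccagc

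Of these 7 genes CARS, GARS, MARS, NARS and TARS rose and AARS and IARS were not called, with a median log2 fold change of 0.36. None of the 7 was lower by limma, adjusted or at an unadjusted p under 0.05. The 9 cytosolic genes without the motif in their promoters had 5 higher, 1 lower and a median of 0.16. The called share was thus 71.4% with the motif and 66.7% without it. Over all genes tested 40.8% were called, 23.9% higher and 16.8% lower. Whether the motif and the changes are linked was not tested. FARSB, with the largest change of the cytosolic genes, and NARS2, with the largest of all, were among the genes without the motif in the window searched. A match is a description of the sequence, and binding was not measured.

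Several of the genes overlap or adjoin another gene. Whether the counting used strand is not given in the sources used here, so reads of overlapping genes on opposite strands cannot be told apart. MARS overlaps DDIT3 on the opposite strand, and DDIT3 fell (9.67 ± 0.528 and 13.7 ± 3.04 FPKM, -0.44 on the log2 scale, limma adjusted p = 0.0453). EARS2 overlaps UBFD1, which fell by 0.54 on the log2 scale, and AIMP2 overlaps EIF2AK1, which had a log2 difference of -0.13 (adjusted p = 0.0517 by limma). In these 3 pairs the synthetase or scaffold gene and its neighbour had log2 fold changes of opposite sign. SARS2, which was not called (-0.23), overlaps MRPS12, which rose by 0.28, again of opposite sign. HARS2 (0.13) overlaps ZMAT2 (-0.11) on the same strand, and neither was called. AARS2 (0.13) overlaps AL353588.1 (-0.05) on the opposite strand, and neither was called. AL353588.1 was near the floor, at 0.012 FPKM in miR-204 cells and 0.051 in control cells. YARS overlaps S100PBP (-0.03) and AIMP1 overlaps TBCK (0.04), neither of which was called. On chromosome 1, EPRS and IARS2, both of which fell, point away from each other with 47443 bases between them, and on chromosome 5, HARS and HARS2 are divergent with 48 bases between them. The table lists 1 transcript for each gene, and the FPKM rests on its length. The transcript listed for MARS is annotated as a target of nonsense-mediated decay, and those of QARS (859 bases) and AIMP1 (568 bases) are short, so the levels of these genes against those of other genes may be off.

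Other genes of tRNA biology were counted next, from lists written from general knowledge. The first list holds 19 partners in charging and delivery, that is elongation factors, the glutaminyl-tRNA amidotransferase and related enzymes. Of these, 11 rose (57.9%) and none fell by limma's adjusted p (12 and 0 at an unadjusted p under 0.05). The median log2 fold change was 0.20, and 23.9% of all genes tested were higher. Without any 1 library other than miR-204 library 3, 7 genes were higher, and without that library 8 were higher and 1 lower. EEF1A2, a tissue-restricted form of the factor that carries charged tRNA to the ribosome, rose by 0.85 on the log2 scale from a low level (1.92 ± 0.0896 and 0.627 ± 0.135 FPKM). EEF1B2, an exchange factor for it, rose by 0.48 (174.4 ± 8.61 and 124.6 ± 4.06 FPKM).

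The second list holds 27 genes of tRNA maturation, of which 8 rose (29.6%) and 2 fell (7.41%), with a median of 0.15. The higher share lies near the 23.9% of all genes tested and the 27.7% of genes with a mean of at least 1 FPKM. Without miR-204 library 2, 5 were higher, and without miR-204 library 1 or 3 or control library 3, 1 was lower. POP5, a subunit of RNase P and RNase MRP, had the largest change, at 36.0 ± 3.34 and 13.3 ± 1.45 FPKM (log2 fold change 1.37, SE 0.094, limma adjusted p = 0.000157). GTPBP3, which modifies mitochondrial tRNA, rose by 0.40. NSUN2, a tRNA cytosine methyltransferase, fell by 0.48 (31.8 ± 1.26 and 44.9 ± 2.51 FPKM), and MTO1, the partner of GTPBP3, fell by 0.24.

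The transcript of ATF4, to whose known targets many of these enzymes belong, had 163.3 ± 2.54 FPKM in miR-204 cells and 164.4 ± 3.44 in control cells (log2 fold change -0.01, limma adjusted p = 0.855). This is the RNA level only, and the protein and the activity of ATF4 were not measured. Of 29 genes of the ATF4 response and its kinases, 10 rose (34.5%) and 9 fell (31%), with a median of -0.02. Of all genes tested 23.9% were higher and 16.8% lower. The kinases on the list all had negative log2 fold changes, from -0.46 to -0.03, and some are among the genes that fell. They therefore lower the median and the higher share of this list. The cystine transporter gene SLC7A11 rose by 1.91 on the log2 scale, ASNS, the asparagine synthetase, by 1.27 (26.1 ± 1.66 and 10.2 ± 0.828 FPKM) and STC2 by 1.01. In the other direction DDIT4 fell by 0.97, NUPR1 by 0.88, SESN2 by 0.56 and TRIB3 by 0.36. NARS, NARS2 and ASNS all act on asparagine and were set together after their values had been seen. Each was higher in every miR-204 library than in every control library. Of all genes 30.9% lay this way, and with genes picked by their values the count tests nothing.

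Of 14 interferon response genes, 4 rose (28.6%) and 2 fell (14.3%), with a median of 0.05. These shares lie near the 23.9% and 16.8% of all genes tested. Without control library 1 there were 4 lower, and without control library 2 there was 1. IRF1 rose by 0.48 (31.8 ± 1.85 and 22.6 ± 1.24 FPKM), TAP1 by 0.35 and IFIT3 by 0.34, while OAS1 fell by 0.53 and GBP1 by 0.23. WARS, the synthetase gene known to respond to interferon, was not called.

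**Figure D5:**
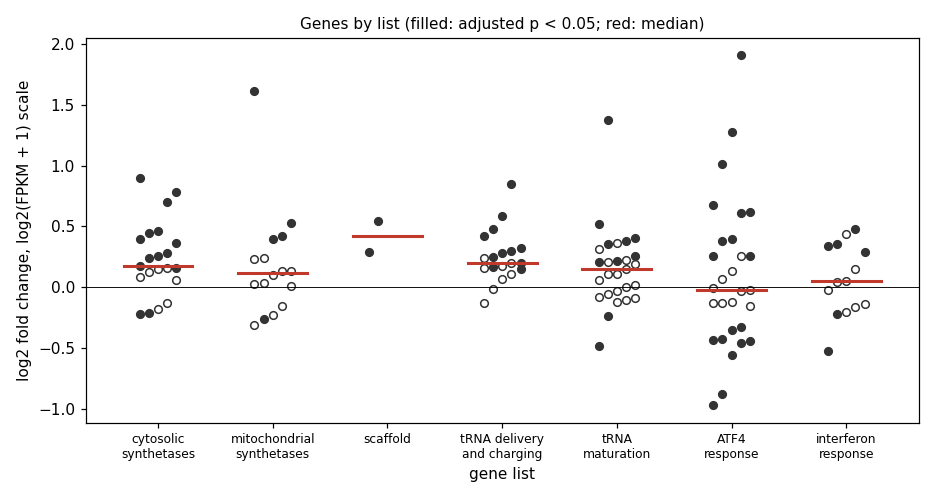
Each point is a gene, placed by list on the x axis and by log2 fold change on the log2(FPKM + 1) scale on the y axis, filled where the limma adjusted p-value was under 0.05, with the median of the list as a red line. The 19 tRNA delivery and charging partners have a median of 0.20 with no filled point below 0. The ATF4 response, a list that includes its kinases, spreads from -0.97 to 1.91 around a median of -0.02.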

How the data were processed

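Total RNA of 6 UM-SCC1 cultures was sequenced from Illumina TruSeq libraries. The submitters' processing notes name HISAT2, StringTie and hg38 without roles or versions, and the FPKM values were computed and deposited by the authors, 1 listed transcript per gene. The rule that kept 14959 genes and the use of strand are not given in the sources used here. The deposited table also holds the authors' log2 ratios, p-values and FDR of the same comparison from edgeR and the transcript length, and the ratios and p-values were not used. No counts were at hand, so log2(FPKM + 1) of every gene, unfiltered, was fitted with limma 3.58.1 (R 4.3.3; functions lmFit and eBayes, trend on). Tests were two-sided, with Benjamini-Hochberg adjustment over all genes at 0.05. A fold change on this scale understates the change of low genes, and an exact permutation test of 3 against 3 cannot give a p below 0.1. The fit was tested on simulated data. Seed matches were read from GENCODE 29 transcripts, the miRNA and promoters from RefSeq, with Python 3.11.15, numpy 2.4.6 and pandas 2.3.3. The members and lists were chosen with earlier results of these data known. All 39 genes could be named, and of each list the called genes with the 3 largest log2 fold changes in each direction, some genes whatever their values (among them EEF1E1, ATF4, DDIT3, ASNS, TRIB3 and IRF1), and genes that overlap a member. Some genes that the rule would name are not reported here. Alternatives were a pseudocount of 0.1, a mean of at least 1 FPKM, the replicate number as a block, equal medians, equal sums, quantile normalization, and each library left out.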

Additional observations from a re-analysis of the deposited data

How the results depend on the processing

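Of the 21 called synthetase and scaffold genes, 16 were called under all 12 alternatives, and the exceptions were FARSA, KARS, RARS, EPRS and AIMP1. Of the 18 genes not called, 12 were called under none. With equal sums 5 of the 39 genes were lower instead of 3. The mitochondrial genes called lower were 2 instead of 1 with a mean of at least 1 FPKM, equal medians, equal sums or quantile normalization, and VARS2 was the gene added. The mitochondrial genes called higher were 6 instead of 4 with a mean of at least 1 FPKM, and 5 with a pseudocount of 0.1. The median log2 fold change of the cytosolic genes was 0.15 with equal medians, 0.13 with equal sums and 0.16 with quantile normalization, and that of the mitochondrial genes was 0.054 with quantile normalization. Of the charging and delivery partners 7 were higher with quantile normalization. Without 1 library at a time, the cytosolic median ran from 0.16 to 0.22, the cytosolic genes called lower from 1 to 3, the partners called higher from 7 to 8 and called lower from 0 to 1, the tRNA maturation genes called higher from 5 to 8 and called lower from 1 to 2, and the interferon genes called lower from 1 to 4. Some genes near 0, none of them called, changed sign. CARS2 had -0.013 with equal medians, -0.0326 with equal sums, -0.0204 with quantile normalization and -0.0342 to 0.0708 with a library left out. RARS2 had -0.011 with equal sums and -0.0103 to 0.0719 with a library left out. YARS2 had -0.0175 with equal sums, -0.0021 with quantile normalization and -0.0392 to 0.0752 with a library left out. The causes were not tested.

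Deviations of libraries with the same replicate number had correlations of -0.0401, -0.021 and -0.108 across 11504 genes, so the values show no shift shared by number. Whether libraries with the same number were made together cannot be told from this. With the replicate number as a block 17 of the 39 genes were higher and 4 lower, with KARS lost and HARS gained, 5096 instead of 6098 of all genes were called, and 1 tRNA maturation gene was lower. The table gives no counts, so counting error per gene is not known beyond the steps given above.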
